A study of Drosophila melanogaster with 3 samples.

Results

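Small nucleolar RNA (snoRNA) genes and the genes that contain them were examined for binding sites of HHEX, a homeodomain transcription factor, in the *Drosophila melanogaster* embryo. The annotation of the dm6 build (Ensembl release 115) holds 269 genes of biotype snoRNA on the X, on both arms of chromosomes 2 and 3 and on chromosome 4, among 18164 genes in all when transposable elements are left out. The host of a snoRNA was the shortest protein-coding or noncoding RNA gene that contains it on the same strand, which gave 92 hosts for 247 of the snoRNAs. The remaining 22 snoRNAs had no such host. Of these, 10 lay inside a gene of the opposite strand and 12 in no gene. A snoRNA, or a host, was counted as called when a peak summit lay within 500 bp of the snoRNA, or of a transcription start site (TSS) of the host. Chromatin immunoprecipitation with sequencing (ChIP-seq) was done with an anti-GFP antibody on whole embryos of mixed sex, aged 0 to 24 h, of a transgenic line in which HHEX (CG7056) carries GFP at the C-terminus. There were 3 biological replicates of this 1 group, and chromatin was sonicated to 200 to 800 bp. The promoter that drives the transgene is not given in the sources used here, and a whole embryo mixes all its cell types. No wild-type or untagged immunoprecipitation was analysed here, so regions enriched in any anti-GFP immunoprecipitation cannot be told apart from sites of HHEX.

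Box C/D snoRNAs guide 2′-O-methylation of ribosomal RNA together with the methyltransferase fibrillarin, and box H/ACA snoRNAs guide pseudouridylation together with the pseudouridine synthase dyskerin. Most animal snoRNAs lie in introns and are cut out of the spliced intron of the host transcript, so that the promoter of the host also makes the snoRNA. Many hosts encode ribosomal proteins or other parts of the translation machinery. A few, the U snoRNA host genes (Uhg), make a spliced RNA with no known protein product.

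The sequences that carry the comparison of host promoters are given first, since the called summits of hosts lay at their TSSs. Each of the first 6 windows holds the 201 bases centred on the summit of the strongest called peak at the host (base 101), and the last one is centred on a TSS of Arpc2, the host with the most snoRNAs, which was not called. All are on the strand of the gene, from genome release 6 (dm6). Capitals mark 3 words, searched on both strands: TATCGATA (the DNA replication-related element), GGTCACAC (core promoter motif 1) and TTCTTT (a pyrimidine run, AAAGAA where it lies on the other strand). RpL14 (chr3L:8600892-8601092, plus strand) has its TSS at base 115 and RpL13A (chr3R:5624325-5624525, plus strand) at base 150. The TSS lies at base 155 in RpL28 (chr3L:3222914-3223114, minus strand), at base 123 in RpL30 (chr2L:19009159-19009359, minus strand) and at base 137 in RpS12 (chr3L:13023216-13023416, plus strand). In Uhg2 (chr2L:9894948-9895148, minus strand) the TSS is at base 146 and none of the 3 words is in the window. The Arpc2 window is chr2L:20416957-20417157 on the plus strand.
RpL14: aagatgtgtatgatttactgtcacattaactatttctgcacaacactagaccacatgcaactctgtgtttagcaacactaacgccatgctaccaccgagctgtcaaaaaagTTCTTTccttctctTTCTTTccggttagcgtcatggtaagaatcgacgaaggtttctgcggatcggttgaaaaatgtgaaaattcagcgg
RpL13A: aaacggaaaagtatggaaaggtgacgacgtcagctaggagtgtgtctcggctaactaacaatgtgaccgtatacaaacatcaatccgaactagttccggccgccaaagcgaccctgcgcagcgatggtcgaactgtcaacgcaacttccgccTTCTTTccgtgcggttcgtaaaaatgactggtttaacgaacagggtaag
RpL28: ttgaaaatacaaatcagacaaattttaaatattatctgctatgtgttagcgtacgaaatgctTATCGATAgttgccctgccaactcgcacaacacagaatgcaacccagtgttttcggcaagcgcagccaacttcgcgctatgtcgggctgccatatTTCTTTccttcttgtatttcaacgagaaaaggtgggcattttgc
RpL30: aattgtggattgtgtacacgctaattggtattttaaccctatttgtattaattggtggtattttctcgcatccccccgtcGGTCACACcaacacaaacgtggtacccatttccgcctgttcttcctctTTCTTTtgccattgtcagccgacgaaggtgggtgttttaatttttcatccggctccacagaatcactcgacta
RpS12: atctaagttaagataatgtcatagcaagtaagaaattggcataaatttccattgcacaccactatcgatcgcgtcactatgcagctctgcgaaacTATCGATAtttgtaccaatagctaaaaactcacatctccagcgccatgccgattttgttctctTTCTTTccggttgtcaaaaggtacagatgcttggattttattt
Uhg2: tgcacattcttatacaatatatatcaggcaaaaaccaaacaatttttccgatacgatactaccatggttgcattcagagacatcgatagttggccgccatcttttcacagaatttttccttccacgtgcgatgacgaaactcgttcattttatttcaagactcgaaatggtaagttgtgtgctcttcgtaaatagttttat
Arpc2: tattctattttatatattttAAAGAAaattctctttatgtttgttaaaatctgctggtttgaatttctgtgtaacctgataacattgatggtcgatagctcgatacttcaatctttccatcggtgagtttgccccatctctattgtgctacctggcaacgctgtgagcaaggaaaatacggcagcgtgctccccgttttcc

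The snoRNAs themselves are shown by 4 genes that had a called summit nearby. Psi28S-3342 (chrX:5524302-5524465, minus strand) was a hostless box H/ACA snoRNA with the summit inside it, at its base 22. Or-aca2 (chrX:7901062-7901203, minus strand), in an exon of RpS6, is also box H/ACA. The ACA box of both, 3 bases before the 3′ end, is in capitals. Me18S-A1576 (chr2L:9894795-9894907, minus strand) is the first snoRNA of Uhg2, and Me28S-A774b (chr3L:13023580-13023652, plus strand) lies in an intron of RpS12. Both are box C/D, and capitals mark the C box TGATGA and the D box CTGA.
Psi28S-3342: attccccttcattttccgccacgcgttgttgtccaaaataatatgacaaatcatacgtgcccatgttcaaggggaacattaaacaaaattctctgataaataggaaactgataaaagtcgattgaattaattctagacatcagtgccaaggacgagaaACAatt
Or-aca2: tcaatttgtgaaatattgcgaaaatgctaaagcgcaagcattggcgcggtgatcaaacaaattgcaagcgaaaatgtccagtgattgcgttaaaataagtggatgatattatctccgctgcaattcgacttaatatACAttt
Me18S-A1576: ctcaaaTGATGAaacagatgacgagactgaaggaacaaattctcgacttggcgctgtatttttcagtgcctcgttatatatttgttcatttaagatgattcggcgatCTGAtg
Me28S-A774b: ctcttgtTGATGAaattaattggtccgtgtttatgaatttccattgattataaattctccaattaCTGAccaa

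By name, 120 of the 269 snoRNAs were box H/ACA with a median length of 140 bp, 119 were box C/D with a median of 80 bp, and 30 were of neither name. The 2R arm held 96 of them, more than any other arm. Of the hosted snoRNAs, 227 lay in an intron, 17 within an exon of some transcript and 3 overlapped an exon. Of these 247 snoRNAs, 11 lay in a pair of overlapping genes of the same strand, of which the shorter was taken as host. The hosts were 28 ribosomal protein genes with 71 snoRNAs, 7 Uhg genes with 48, 54 other protein-coding genes with 121 and 3 other noncoding RNA genes with 7. Of the 92 hosts, 55 held 1 snoRNA. Arpc2, a subunit of the actin-nucleating Arp2/3 complex, held 17, Uhg1 held 16, the chromatin remodeller gene dom held 15 and RpS5a held 14.

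The deposited data are lists of regions. A list filtered by the irreproducible discovery rate (IDR), a procedure meant to keep peaks which rank alike in replicates, held 5586 peaks and served for the calls. Peaks in it need not have a region in every replicate list. The pooled list and each replicate list held 30000 regions that run far below that threshold. To compare the replicates, the 5586 regions with the highest signal were taken from each. The signal of a region is the peak caller's value as the authors deposited it, and serves here to rank and describe regions within a list. Where signals of replicates stand side by side, or as a mean and SD, they were not scaled between lists. Their spread may thus also hold differences between the lists as a whole. At a −log10 q of 2 or more, replicate 1 held 9759 regions, replicate 3 held 6498 and replicate 2 the fewest, 3212. Read depth is unknown because the files hold regions and no read counts.

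A summit stood at the TSS of 53 of the 92 hosts, or 57.6%. Among the 17112 other protein-coding and noncoding RNA genes the share was 17.2%. Among the highest regions of replicates 1, 2 and 3 the share of hosts was 56.5%, 52.2% and 63.0%, a mean of 57.2% ± 5.47 (SD, n = 3), against 17.0% ± 0.809 (SD, n = 3) of other genes. Hosts exceeded other genes by 38.9, 36.1 and 45.8 percentage points in the 3 replicates, a mean of 40.3 ± 5.01 points (SD, n = 3). The difference had the same direction in 3 of 3 replicates and was larger than its spread. An exact two-sided sign-flip permutation test over the 3 replicates gave p = 0.25, the smallest p that 3 replicates allow, and 0.292 after Benjamini-Hochberg adjustment over the 7 such comparisons made. Without ribosomal protein genes in either group, the excess in the IDR list was 23.6 points instead of 40.4.

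**Figure D1:**
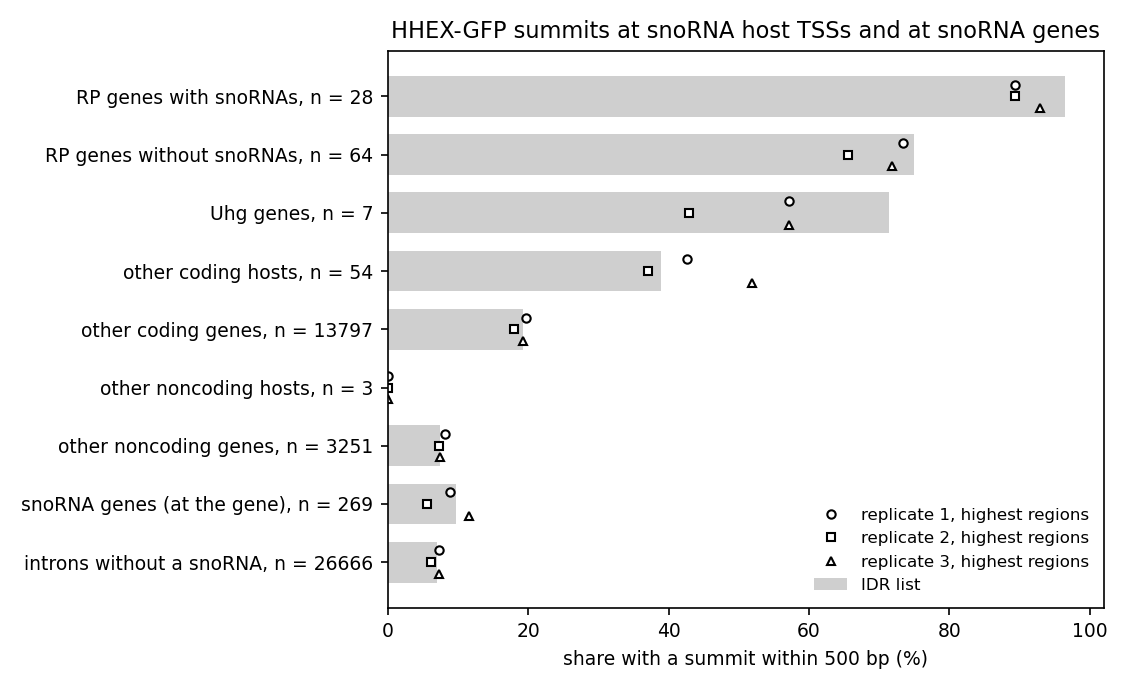
Share of genes with a summit within 500 bp of a TSS, and share of snoRNA genes and of snoRNA-sized windows in introns with a summit within 500 bp; RP stands for ribosomal protein. Bars give the IDR list and the open symbols the 5586 highest regions of each replicate. Ribosomal protein hosts stood at 96.4%, other protein-coding hosts at 38.9%, snoRNA genes themselves at 9.67%.

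The groups of hosts differed. Of the 28 ribosomal protein hosts, 27 were called (96.4%), as were 5 of the 7 Uhg genes (71.4%), 21 of the 54 other protein-coding hosts (38.9%) and 0 of the 3 other noncoding hosts. Of these 3, lncRNA:CR42491 lies inside RpL22, which was called, and lncRNA:CR45184 inside Sf3b3, which was not. Both count as hosts because the shorter gene was taken. The background was 19.2% among protein-coding genes that are neither hosts nor ribosomal and 7.44% among noncoding RNA genes that are no hosts. Ribosomal protein genes as a class were often called: of the 64 that hold no snoRNA, 48 were called (75.0%), and 43 of 52 (82.7%) when 12 genes named as like or b paralogs were left out, a choice made after seeing the data. The 52 still hold RpL10Aa, RpL37-2, RpS10a and RpS28a, whose names also mark them as members of a pair or series, and which were not called. Ribosomal protein hosts stood above the 64, paralogs included, in each replicate, by 15.8, 23.7 and 21.0 points (mean 20.2 ± 3.97, SD, n = 3, exact sign-flip permutation p = 0.25, adjusted 0.292). What this difference owes to paralogs was not tested. Other protein-coding hosts stood above other protein-coding genes by 23.0, 19.1 and 32.6 points (mean 24.9 ± 6.94, SD, n = 3, exact sign-flip permutation p = 0.25, adjusted 0.292). Hosts with 1 annotated TSS were called in 26 of 47 cases (55.3%) against 12.5% of other genes with 1 TSS. Hosts with 2 or more TSSs were called in 27 of 45 (60.0%) against 33.8%. The share was 47.3% among hosts of 1 snoRNA (26 of 55), 76.5% among those of 2 to 3 (13 of 17) and 70.0% among those of 4 or more (14 of 20).

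The called peaks at hosts ranked high in the IDR list. Their median signal was 479, against 286 for the other called genes and 255 for all IDR peaks. Of the 53 called hosts, 42 (79.2%) had a peak in the upper part of the list, above the median rank, against 58.6% of other called genes, and 13 (24.5%) were in the highest 10% of the list, against 15.3%. By group, the median signal was 568 at ribosomal protein hosts, 477 at ribosomal protein genes without a snoRNA, 425 at other protein-coding hosts and 261 at Uhg genes. The groups overlapped widely: ribosomal protein hosts ran from 219 to 1340, other protein-coding hosts from 159 to 1338 and Uhg genes from 190 to 1378. By arm, 7 of 10 hosts were called on X, 7 of 15 on 2L, 14 of 23 on 2R, 11 of 22 on 3L and 13 of 21 on 3R, with median signals of 586, 425, 252, 274 and 584. Other genes were not counted by arm, so these values have no background from the same arm, and differences between arms were not tested. The 1 host on chromosome 4, RpS3A, was called at 568, with 197 in replicate 1, 189 in replicate 3 and no region in replicate 2. In the highest regions of the single replicates, hosts had a median signal of 157 against 99.4 for other genes in replicate 1, 166 against 101 in replicate 2, and 124 against 98.1 in replicate 3.

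The strongest peak at any host was at Uhg4, a noncoding host of 7 snoRNAs, with an IDR signal of 1378 (rank 121) and a summit 61 bp upstream of its TSS. Its signal was 453, 467 and 469 in replicates 1, 2 and 3, which differed by little (mean 463 ± 8.74, SD, n = 3). RpL14, a protein of the large ribosomal subunit, followed with 1340, and with 445, 394 and 486 in the replicates (442 ± 45.7, SD, n = 3). Its summit lay 14 bp upstream of the TSS, within the first window printed above. CG1142, a protein-coding host of 1 box C/D snoRNA, had 1338, and 427, 490 and 429 in the replicates, with the summit 174 bp upstream. Stt3A, the catalytic subunit of the oligosaccharyltransferase, had 1334, and 547, 378 and 409 in the replicates. Its summit was 397 bp upstream of its own TSS and 212 bp from that of its neighbour bves, so the peak cannot be given to either gene.

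Among the next 8 hosts by signal, 7 encode ribosomal proteins. RpS4 of the small subunit had an IDR signal of 1088, with 301, 433 and 376 in replicates 1, 2 and 3 and a summit 2 bp from a TSS. RpL13A had 1047, with 311, 393 and 348, and a summit 49 bp upstream. RpL22 had 940 and the closest replicates of these genes, 326, 319 and 313 (320 ± 6.60, SD, n = 3). RpL30 had 929 with 302, 300 and 327, RpS16 had 914 with 285, 332 and 287, and RpL11 had 765 with 270, 302 and 206. All of these were present in the highest regions of each replicate. RpL28 stood apart: its IDR signal was 975, with 221 in replicate 1 and 346 in replicate 3, while the list of replicate 2 held no region there, its nearest summit being 19058 bp away. The only one of the 8 with another role, Msp300, encodes a nesprin that anchors nuclei in muscle, and had 847, with 251, 323 and 270 in the replicates and a summit 344 bp upstream of the nearest of its 5 TSSs.

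**Figure D2:**
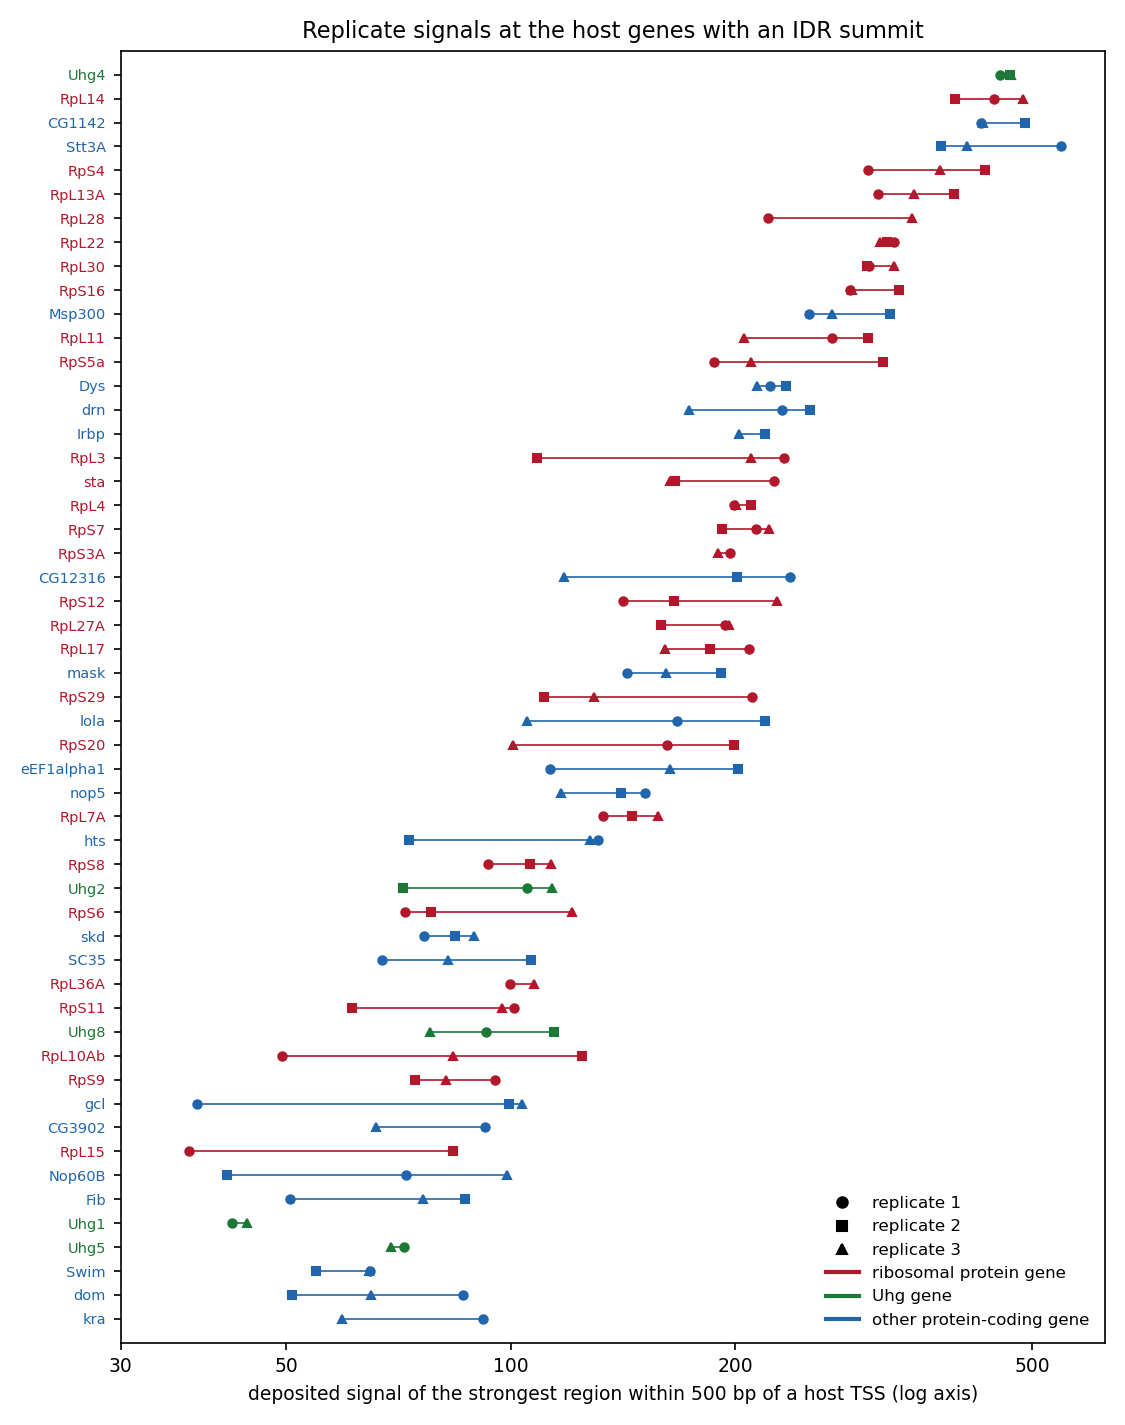
Deposited signal of the strongest region within 500 bp of a host TSS in each replicate, for the 53 called hosts in the order of their IDR signal; a missing symbol means no region in that list, and colours give the group of host. Uhg4 at the top lay between 453 and 469, and the 7 hosts Uhg1, Uhg5, kra, RpL28, RpL36A, RpS3A and CG3902 lack replicate 2.

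Of the 53 called hosts, 44 had an overlapping region in all 3 replicate lists and 40 were in the highest regions of all 3. The lists that lacked a region were replicate 2 for 7 hosts (13.2%, against 9.92% of other called genes), replicate 1 for Irbp, the fly Ku70, and replicate 3 for RpL15. Irbp had an IDR signal of 650 with 219 in replicate 2 and 203 in replicate 3, and the nearest summit of replicate 1 was 11979 bp away. RpL15 had an IDR signal of 219 with 37.1 and 83.6 in replicates 1 and 2, and the nearest summit of replicate 3 was 2730196 bp away. The lowest IDR signal of a called host was 159, at kra. These gaps are absences from lists of 30000 regions and say nothing of how many reads lay there.

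The summits at hosts lay close to the TSS. The median distance was 47 bp, against 150 bp at other called genes, and 37 of 53 hosts (69.8%) had the summit within 100 bp, against 32.2%. Ribosomal protein hosts had a median of 22 bp, with 25 of 27 within 100 bp (92.6%). Ribosomal protein genes without a snoRNA had a median of 26 bp, with 45 of 48 within 100 bp. Other protein-coding hosts had a median of 155 bp, near the 148 bp of protein-coding genes that are neither hosts nor ribosomal. The summit was at or upstream of the TSS at 40 of 53 hosts and downstream at 13. It was at or upstream of the TSS at 2364 of 2944 other called genes. At 46 hosts the nearest TSS of any gene to the strongest summit was the host's own. At the other 7 (Stt3A, hts, skd, SC35, Uhg8, gcl and Fib) a neighbouring gene had the nearer TSS. Of those, hts, skd and Uhg8 also had a weaker IDR summit nearest to their own TSS.

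**Figure D3:**
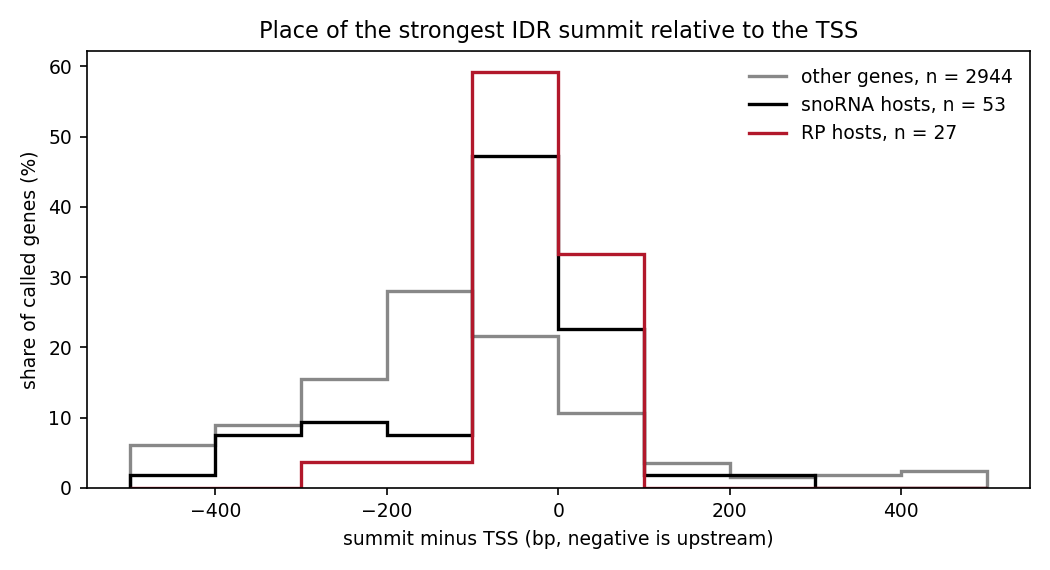
Signed distance of the strongest IDR summit from the nearest TSS of the gene, in 100 bp steps, as a share of called genes. Of the called hosts 47.2% fall in the 100 bp just upstream and 22.6% in the 100 bp just downstream, against 21.6% and 10.6% of other called genes, whose most common step, with 28.1%, is 100 to 200 bp upstream.

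The cutoff of 500 bp left few hosts near it. Just inside lay Stt3A at 397 bp, Msp300 at 344 bp and gcl (germ cell-less) at 310 bp. Just outside lay CG42564 at 514 bp, tou (a bromodomain protein of chromatin remodelling) at 550 bp and pAbp (poly(A)-binding protein) at 555 bp. The peaks nearest to these 3 had IDR signals of 381, 707 and 300.

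The 7 Uhg genes ranged from the strongest host peak to no region at all. After Uhg4, Uhg2 had an IDR signal of 309, with 105, 71.8 and 113 in replicates 1, 2 and 3 and a summit 45 bp upstream of its TSS. Uhg8 had 261, with 92.6, 114 and 77.9, but this summit lay 287 bp upstream of its own TSS and 142 bp from that of CG5199. A weaker IDR summit of 207 lay 76 bp upstream of the Uhg8 TSS. Both were in the highest regions of all 3 replicates. Uhg1, with 16 box C/D snoRNAs, had 203 in the IDR list, 42.3 in replicate 1, 44.4 in replicate 3 and no region in replicate 2. Uhg5, with 11 box C/D snoRNAs, had 190, with 72.0 in replicate 1, 69.1 in replicate 3 and likewise none in replicate 2. Uhg1 was in the highest regions of 0 of 3 replicates and Uhg5 in those of 2. Uhg3 was not called and had a pooled region of signal 98.1. Uhg7 had no region within 500 bp in any of the 5 lists, and its nearest IDR summit was 1413 bp away.

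Hosts with many snoRNAs had peaks of all strengths. The 20 hosts with 4 or more held 153 snoRNAs, and 14 of them were called, with a median IDR signal of 500.3, against 535 at hosts of 2 to 3 snoRNAs and 468 at hosts of 1. RpS5a, with 14 box H/ACA snoRNAs, had an IDR signal of 694, with 187, 316 and 210 in replicates 1, 2 and 3. RpS7, with 7 box H/ACA snoRNAs, had 573 with 214, 192 and 222, and a summit at the base of an annotated TSS. RpL3, RpL17 and lola, a gene for many zinc finger proteins, had 587, 527 and 474. At the low end, Nop60B, the fly dyskerin, had 211, dom had 188 and kra, a translation regulator, had 159. Not called were Arpc2, Hrb98DE (an hnRNP A1-like protein), Sf3b3 (a splicing factor subunit), CG10576, Uhg7 and the noncoding lncRNA:CR45184. Arpc2, whose promoter is the last window printed above, had a pooled region of 154, just below the lowest IDR signal of 156, with 57.5, 31.2 and 76.1 in the replicates. Its nearest IDR summit was 2018 bp from a TSS. Hrb98DE had a pooled region of 128, with 48.0, 53.1 and 74.4 in the replicates, and Sf3b3 one of 138 with no region in replicate 2.

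**Figure D4:**
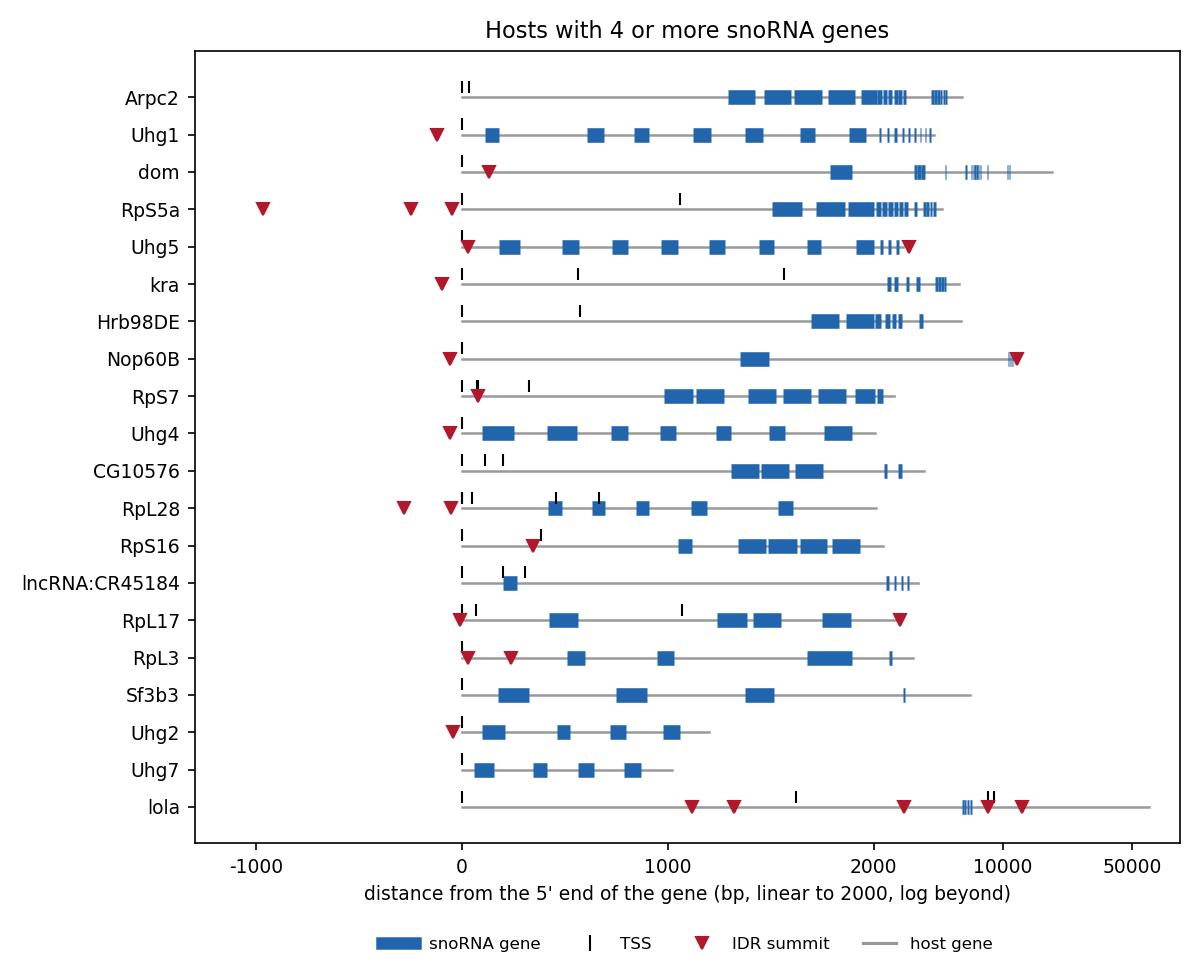
The 20 hosts with 4 or more snoRNA genes, drawn from the 5′ end of the gene on an axis that is linear to 2000 bp and logarithmic beyond, with snoRNA genes, TSSs and IDR summits. Of the 25 IDR summits from 1000 bp before to 1000 bp after these genes, 18 lie within 500 bp of a TSS of the gene, 3 inside the gene farther away, 3 after it and 1 farther upstream.

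Of the 39 hosts that were not called, 20 had a region of some strength in the pooled list, where hosts reached 79.3% and other genes 42.1%. The other 19 had none. None of the 39 was in the highest regions of 3 replicates, and 11 were in those of at least 1. RpL5, a large subunit protein of the complex that carries 5S RNA, was the only ribosomal protein host not called. Its pooled signal was 95.9, it had a region only in replicate 2, of 50.4, and the nearest IDR summit was 392332 bp away.

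The snoRNA genes themselves were seldom near a summit. Of the 269, 26 (9.67%) had an IDR summit within 500 bp, and these shared 23 peaks. Of the 26, 8 were among the 22 snoRNAs with no host. Windows of 135 bp at the midpoints of 26666 introns of at least 150 bp without a snoRNA gave 6.98%. The same windows in 551 introns of the hosts themselves, of any length and without a snoRNA, gave 11.1%. In the highest regions of the replicates the snoRNA share was 8.92%, 5.58% and 11.5%, a mean of 8.67% ± 2.98 (SD, n = 3), against 6.98% ± 0.652 (SD, n = 3) for the 26666 introns. The difference was 1.55 points in replicate 1, -0.653 in replicate 2 and 4.18 in replicate 3, a mean of 1.69 ± 2.42 (SD, n = 3), smaller than its spread (exact sign-flip permutation p = 0.5, adjusted 0.5). The 269 snoRNAs in this comparison include the 22 with no host, of which 36.4% were called in the IDR list. Hosted snoRNAs alone were not set against introns. Box H/ACA and box C/D snoRNAs had shares of 9.17% (11 of 120) and 9.24% (11 of 119). They differed by 0.770, 0.791 and 4.09 points in the replicates, H/ACA being higher each time (mean 1.88 ± 1.91, SD, n = 3, exact sign-flip permutation p = 0.25, adjusted 0.292), a difference no larger than its spread. With only those IDR peaks that also lay in the highest regions of both other replicates, the share of snoRNAs was 5.58% without replicate 1 and 5.20% without replicate 3, against 8.18% without replicate 2.

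The summits near snoRNAs were mostly those of the host promoter. Of the 26 called snoRNAs, 16 had a summit that was also within 500 bp of a host TSS. Among snoRNAs that begin within 500 bp of a host TSS, 14 of 35 (40.0%) were called, and introns as near to any TSS gave 17.2%. Between 500 and 1000 bp it was 2 of 51 (3.92%), against 7.83% of 3820 introns. Beyond 1000 bp, 2 of 161 (1.24%) were called, against 2.76% of 16403 introns. The 53 called hosts held 166 snoRNAs, of which 17 were called. Of the 139 that lay more than 500 bp from a TSS of a called host, 3 were. By host, 10 of 71 snoRNAs in ribosomal protein genes (14.1%), 7 of 48 in Uhg genes (14.6%) and 1 of 121 in other protein-coding genes (0.826%) were called. The first and the last of these shares differed by 9.61, 10.4 and 7.72 points in the replicates (mean 9.26 ± 1.40, SD, n = 3, exact sign-flip permutation p = 0.25, adjusted 0.292). The groups were not matched for distance from the host TSS, and what this difference owes to distance was not tested.

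**Figure D5:**
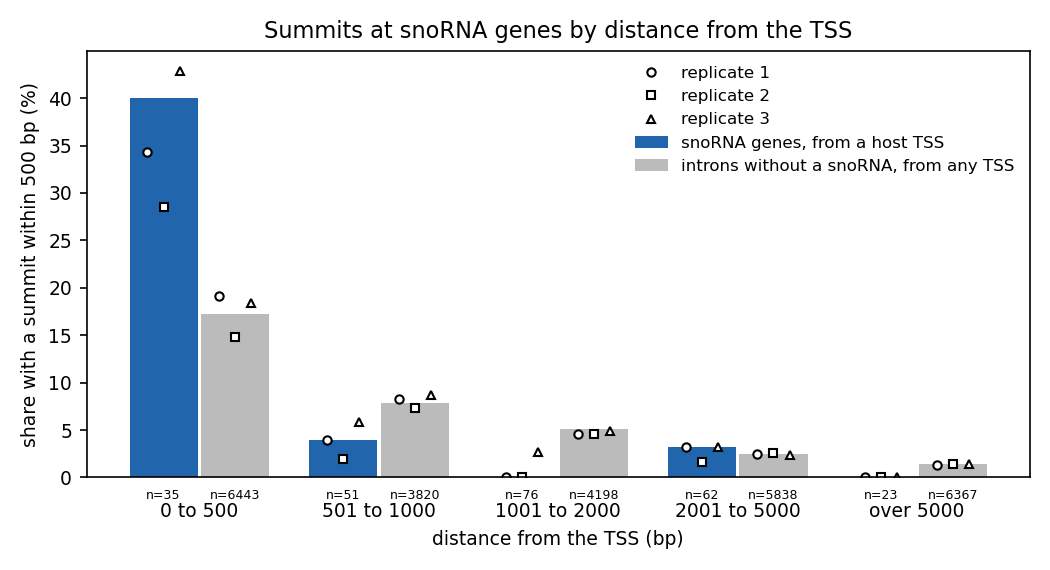
Share of snoRNA genes with a summit within 500 bp, by distance from the nearest host TSS, beside intron windows by distance from any TSS; bars give the IDR list and open symbols the replicates. The share of snoRNAs falls from 40.0% within 500 bp to 3.92% between 500 and 1000 bp, and is 0 between 1000 and 2000 bp and in the farthest step.

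The snoRNAs called through the host promoter included the first ones in their hosts. Psi28S-2949 and Or-aca5, the first in Uhg4, lay 160 and 473 bp from the summit of that strongest host peak. Me18S-A1576, printed above, lay 141 bp from the summit of Uhg2. Or-aca2 lay 79 bp from the summit of RpS6 (IDR signal 279, with 72.1, 78.3 and 121 in replicates 1, 2 and 3). Me28S-A774b lay 264 bp from the summit of RpS12 (535, with 141, 166 and 228). Nearest to the cutoff were Psi28S-2648 in RpL36A at 489 bp, U49:66Da in RpL14 at 481 bp and abba-a at 478 bp, and just beyond it Me18S-G1620 at 504 bp, Me28S-G3253 at 541 bp and Me28S-A2113 at 576 bp.

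In 10 cases a summit stood near the snoRNA and not at a host TSS, and 2 of these had a host. The count was 5 without replicate 1, 5 without replicate 3 and 9 without replicate 2. Or-CD4, the last box C/D snoRNA of Uhg5, lay 362 bp from a summit past the 3′ end of the gene, with an IDR signal of 291, with 106 in replicate 1 and in replicate 3 and no region in replicate 2. This peak was stronger than the one at the Uhg5 TSS. The snoRNA abba-a lies in tn, a TRIM family gene, and the peak near it had 277, with 93.0, 83.1 and 89.0 in the replicates. Its host TSS was not called.

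The other 8 had no host, and 8 of 22 hostless snoRNAs were thus called (36.4%), beside 9.67% of all snoRNAs. No set of windows outside introns was counted as a background for them. They shared few peaks: Or-ACA6 and Or-CD13 lay on either side of 1 summit inside egr, the tumour necrosis factor gene on the opposite strand, with an IDR signal of 573 and 199, 159 and 205 in replicates 1, 2 and 3. Psi28S-1153 and 2 unclassed neighbours shared a peak of 170, with 67.0 and 84.3 in replicates 1 and 3 and no region in replicate 2. The summit lay inside the snoRNA in 2 cases in all. In Psi18S-176 the peak had 285, with 131, 32.6 and 121 in the replicates, replicate 2 being the low one. In Psi28S-3342, the first snoRNA printed above, it had 174, with 49.8, 32.9 and 83.9, and the nearest TSS of any gene was 6944 bp away. The snoRNA named 185 lay 35 bp from a summit with 213, with 115, 89.2 and 79.3 in the replicates, 13111 bp from the nearest TSS. The share of hostless snoRNAs called ranged from 13.6% in replicate 2 to 40.9% in replicate 3.

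The genes for proteins that work with snoRNAs were called about as often as the other protein-coding hosts (38.9%), but the 2 sets overlap. Fib, nop5 and Nop60B belong to both, and each was called. Of a list of 21 such genes, 20 were found in the annotation and 8 (40.0%) were called, against 19.2% of protein-coding genes that are neither hosts nor ribosomal; their median IDR signal was 253. The strongest was pont, an ATPase of the snoRNP assembly complex, with 762, and with 249, 292 and 222 in replicates 1, 2 and 3. Its partner rept had 176, with 67.6, 82.6 and 61.7. NHP2, a core protein of H/ACA particles, had 544, with 155, 171 and 213. For the C/D particle, nop5 (itself a host) had 425, with 152, 141 and 117, and Fib, the fly fibrillarin and also a host, had 203, with 50.6, 86.7 and 76.2. The Fib summit lay 155 bp upstream of its own TSS and 57 bp from that of CG3085. Nop56 and hoip, the remaining core C/D proteins, were not called and had pooled regions of 69.8 and 52.4. Of the H/ACA core, Nop60B was called at 211, and Gar1 and Nop10 were not. Nopp140, a nucleolar chaperone, had 245 and the exosome nuclease Rrp6 had 261. Also not called were Nufip, Nop17l, Tgs1, coil, WDR79, Dis3, ldbr and CG10341. Of the 12 uncalled genes, 7 had a region in the pooled list. The core particles were thus called in part: 2 of 4 C/D proteins and 2 of 4 H/ACA proteins.

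Sequence words were counted in the promoters on both strands. In the 300 bases from 250 before to 50 after the gene start, TATCGATA was found in 19.6% of hosts and 7.77% of other genes, and in 11.6% of other called genes. It was as common in hosts that were not called (20.5%) as in called ones (18.9%). Ribosomal protein hosts had it in 28.6% of promoters and ribosomal protein genes without a snoRNA in 31.3%. GGTCACAC was found in 17.0% of called hosts, 5.13% of uncalled hosts and 6.36% of other genes. TTCTTT was found in 56.6% of called hosts, 28.2% of uncalled hosts and 31.1% of other genes, and in 60.7% of ribosomal protein hosts against 62.5% of those without a snoRNA. CACGTG was found in 10.9% of hosts and 4.14% of other genes. The TATAAA word stood at 45.7% and 43.8%. The homeodomain-type words TAATTA (25.0% against 19.8%), CAATTA (25.0% against 25.4%) and CATTAA (22.8% against 21.1%) were about as common in hosts as in other genes. Split by call, TAATTA was found in 26.4% of called and 23.1% of uncalled hosts, CAATTA in 30.2% and 17.9%, and CATTAA in 28.3% and 15.4%. Among other called genes these words stood at 22.4%, 22.8% and 22.8%. These shares were not tested.

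Around the summit, within 250 bp on either side, TATCGATA lay at 11 of 53 called hosts (20.8%), against 4.73% of all IDR summits, and GGTCACAC at 9 of 53 (17.0%), against 4.31%. All IDR summits include those away from promoters, so this sets promoters beside other sequence. In the promoters counted above, TATCGATA was found in 18.9% of called hosts and 11.6% of other called genes. For GGTCACAC the shares were 17.0% and 9.65%. The TATCGATA word lay 1 bp from the summit in RpS12, 28 bp in Nop60B, 35 bp in RpL28 and 37 bp in RpS29. The capitals show it for RpS12 and RpL28. In RpS5a, the farthest of the 11 hosts, it lay 224 bp away. The GGTCACAC word lay 11 bp from the summit in RpL27A and 17 bp in RpL30, and at most 197 bp away, in RpS9. In the printed windows of RpL14, RpL13A, RpL28, RpL30 and RpS12 the TTCTTT word first begins at base 112, 153, 158, 129 and 159, with TSSs at base 115, 150, 155, 123 and 137. Of these, RpS12 has it farthest from the TSS. Windows cut in the same way for the called hosts RpS4 and CG1142 were not printed. That of RpS4 holds none of the 3 words, and that of CG1142 holds only AAAGAA, at base 21. A match is a description of the sequence and marks no binding site.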

How the data were processed

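Peaks of the anti-GFP ChIP-seq of 3 replicates were taken from the lists on the dm6 build; lists on another build were not used and nothing was converted. The signal of each region is the value of the authors' peak caller as deposited, and the −log10 q-value and the summit offset per region were also deposited by the authors. All replicates were called against 1 control alignment, per the labels, which was not analysed here. For the aligner, the peak caller and the IDR threshold, the names and settings were not given in the sources. The members, lists and words were chosen with earlier results of these data known. A summit is the region start plus the deposited offset. Genes, transcripts and TSSs came from Ensembl release 115 and sequence from genome release 6. Genes were named by rule: the 12 hosts with the strongest peaks, all Uhg hosts, hosts with 4 or more snoRNAs, called snoRNAs away from a host TSS, uncalled ribosomal protein hosts, the 3 members on either side of the cutoff, and a list of 21 snoRNP genes, of which Shq1 was not matched. Other genes in the text were picked with their values in view. The values of 1 host are not reported here. Lists are described by counts and medians; the sign-flip permutation test over replicates was the test used, and p-values measure only the spread between these samples. Counting was tested on simulated data with summits planted at known hosts. Python 3.11.15, NumPy 2.4.6 and SciPy 1.17.1 were used. Alternatives were other distances, stricter or looser lists, other host rules, and, for each replicate, the IDR peaks found in the highest regions of both other replicates.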

Additional observations from a re-analysis of the deposited data

How the results depend on the processing

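The excess of hosts over other genes stayed above 0 in all 14 alternatives tried for it, from 23.6 to 41.9 points, and without 1 replicate from 30.8 to 37.0. Here, without 1 replicate means the IDR peaks with the summit in the highest regions of both other replicates. The IDR list itself was not made anew and still drew on all 3 replicates. The share of hosts called was 45.7% with the upper part of the IDR peaks by signal, 79.3% with all pooled regions, and 42.4% to 50% without 1 replicate. These settings also change the number of peaks counted: 2793 in the upper part and 3656 to 4017 without 1 replicate, and other genes fell or rose with them (10.1% in the upper part). Counting a summit only for the gene with the nearest TSS, an alternative added after seeing the data, gave 53.3% of hosts and 13.0% of other genes. The share of snoRNAs called depended most on the distance: 4.46% at 250 bp, 26.4% at 1000 bp, 13.0% when any base of the peak counted, 6.32% with the upper part, 22.3% with all pooled regions, and 5.20% to 8.18% without 1 replicate. The number of snoRNAs called away from a host TSS, 10, was 5 at 250 bp, 20 at 1000 bp, 5 with the upper part and 5 to 9 without 1 replicate, the low value coming without replicate 1 and without replicate 3. The median signal at called hosts was 557 with the upper part and 528 to 535 without 1 replicate. No paired analysis was possible because the study has 1 group. Depth cannot be judged from region lists.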
